A study of Mus musculus with 40 samples.

Results

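The genes described here encode the insulin-like growth factor (IGF) and insulin signalling proteins of a list of 10 genes chosen by name: Igf1, Igf1r, Igf2r, Insr, Irs1, Grb10, Igfbp1, Igfbp3, Igfbp4 and Igfbp5. All 10 were found among the 28467 genes of the bulk table and the 32285 genes of the nucleus table, and all 10 passed the filter on low counts at each bulk time point. The study removed the left kidney of mice (unilateral nephrectomy, UNx) or operated without removing it (sham), and measured RNA in a cross-section of the right kidney. Every group shared the strain (C57BL/6), the sex (male), the age range (8 to 12 weeks) and anaesthesia with surgery, and no group carried a transgene or received a drug beyond anaesthetic, saline and pain relief. Bulk RNA-seq covered 6 sham and 6 UNx mice at each of 24, 48 and 72 h, with separate shams for each time. RNA of isolated nuclei was read in 4 other mice at 24 h, 2 per group, and each nucleus carries a cell class given by the authors.

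IGF-1 and insulin act through a pair of related receptor tyrosine kinases, IGF1R and INSR, which phosphorylate docking proteins such as IRS1 and so switch on the PI3K-AKT and RAS-MAPK routes of growth and nutrient use. IGF2R takes up and clears IGF-2 and carries mannose-6-phosphate-tagged enzymes to lysosomes, and GRB10 is an adaptor that damps signalling from the active receptors. The IGF-binding proteins hold IGFs in blood and tissue, and proteases such as PAPPA and PAPPA2 cut them and free the ligand. In the kidney IGF-1 is known as a factor that raises renal blood flow and filtration and that has long been studied in the growth of the kidney left after nephrectomy.

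The promoters of 2 members called below are printed because they hold a motif of the insulin response. Forkhead box O (FOXO) factors, which insulin keeps out of the nucleus, are known to bind such short motifs at Igfbp1. Both strands of the promoters in the RefSeq-derived table (GRCm38.p6), 250 bases before to 50 after each gene's start, were searched for CAAAACA (the core of the insulin response element) and for GTAAACA (a FOXO consensus), which share the letters AAACA. Of the 10 genes, 9 had 10 promoters in that table, and the entry for Insr is missing. CAAAACA was found in the promoters of Igfbp1 and Irs1, and GTAAACA in none of the 10 promoters. Over all 32851 promoters 6.28% held CAAAACA, 3.65% held GTAAACA and 9.63% held either. The match in Igfbp1 lay at -108 to -102 from the start, and the 2 matches in Irs1, read as TGTTTTG on the gene's strand, lay at -111 to -105 and at -32 to -26. Each line gives the 250 bases before the start, 5′ to 3′ on the gene's strand, with the matches in capitals. Igfbp1 lies on the plus strand (chr11:7197537-7197786) and Irs1 on the minus strand (chr1:82291440-82291689).
Igfbp1: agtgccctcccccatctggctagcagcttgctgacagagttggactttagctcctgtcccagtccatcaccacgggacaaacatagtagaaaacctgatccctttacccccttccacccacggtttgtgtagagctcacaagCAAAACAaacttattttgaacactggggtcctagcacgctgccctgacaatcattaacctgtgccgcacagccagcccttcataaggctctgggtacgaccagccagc
Irs1: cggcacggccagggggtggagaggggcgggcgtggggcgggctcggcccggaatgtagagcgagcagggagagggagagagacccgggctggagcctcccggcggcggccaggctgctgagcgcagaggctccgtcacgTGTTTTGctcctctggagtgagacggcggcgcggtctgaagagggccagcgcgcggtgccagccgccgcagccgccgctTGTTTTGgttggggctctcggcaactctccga

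Bulk libraries held 14.9 to 24.1 M estimated counts, and bulk levels below are CPM (counts per 1000000, after TMM scaling of the library sizes). The labels put all 24 h libraries in batch 1 and all later ones in batch 2, so an effect at 24 h and the batch cannot be told apart when times are compared. Libraries also stood apart within times. Mitochondrially encoded genes took 14.0% to 15.5% of counts in 48 h shams but 25.8% to 26.4% in UNx replicates 1 to 5 and 15.2% in UNx replicate 6. A profile score from pseudogenes (0 for the mean of the later shams, 1 for that of the 24 h shams) was -0.04 to 0.06 in 48 h shams, 0.640 to 0.717 in those 5 UNx libraries and 0.00628 in replicate 6. At 24 h it was 0.958 to 1.04 in sham and 0.674 to 0.884 in UNx. The mitochondrial share at 24 h was 23.5% to 26.7% in sham and 21.5% to 24.9% in UNx. Both measures were thus lower in UNx at 24 h, with overlap in the mitochondrial share. At 48 h both were higher in UNx replicates 1 to 5, while UNx replicate 6 lay within the range of the shams. Values with these measures as covariates, or with UNx replicate 6 as the only UNx library of 48 h, are given below beside named genes. At 72 h the 2 groups lay close in both.

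A gene counted as called when its p in edgeR's quasi-likelihood test, adjusted over all genes by Benjamini and Hochberg's method, was under 0.05. At 24 h 4 of 10 were called, all lower in UNx: the receptor genes Igf1r and Insr and the binding protein genes Igfbp1 and Igfbp4. At that time 27.3% of all 14104 genes tested were called, and 13.1% of all 14104 were called lower. At 48 h 4 of 10 were called, again all lower: the ligand gene Igf1, both receptor genes Igf1r and Insr, and the substrate gene Irs1, beside 32.9% of 14280 genes called and 16.0% called lower. At 72 h 1 of 10 was called, Insr, also lower, beside 1.71% of 14556 genes called and 0.502% called lower. The share of members called lay near that of all genes at 24 and 48 h, so the counts alone do not set the members apart. The median log2 fold change of the 10 was -0.07, -0.22 and -0.21 at the 3 times, against 0.0054, -0.040 and -0.0042 over all genes. Groups that did not overlap, with every UNx library under every sham, were found for Igfbp4 at 24 h, for Igf1r and Insr at 48 h and for Insr at 72 h, beside 4.62%, 4.81% and 0.749% of all genes.

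**Figure D1:**
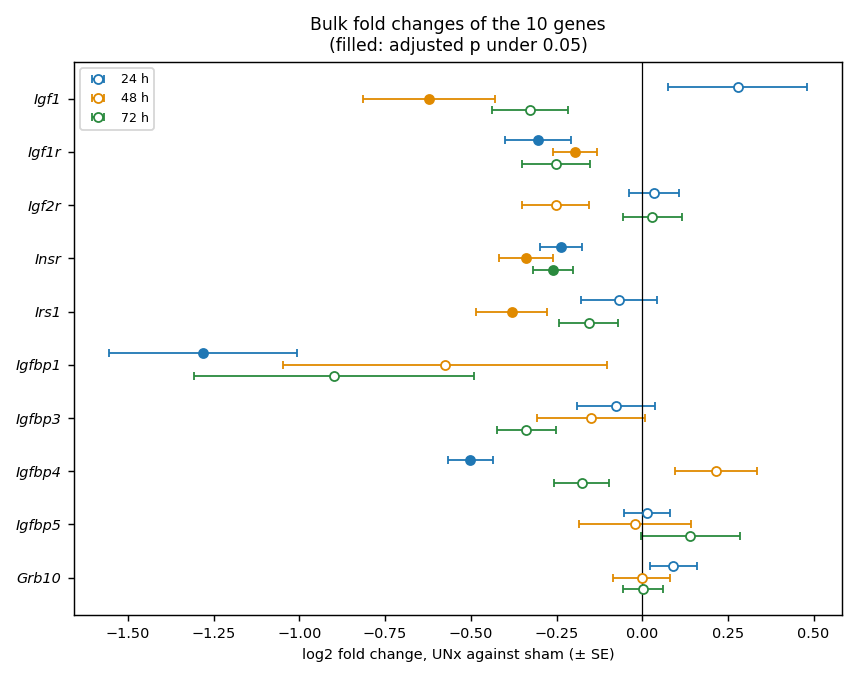
Log2 fold change of UNx against sham (x axis, ± SE) for each of the 10 genes (y axis) at 24, 48 and 72 h, with filled points for an adjusted p under 0.05. Insr is filled at all 3 times, Igf1r at 24 and 48 h, and all filled points lie below 0.

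Igf1 encodes IGF-1, the secreted ligand of IGF1R. At 24 h its level in the sham libraries ran from 4.98 to 10.8 CPM with a median of 9.15, and in the UNx libraries from 7.85 to 18.1 CPM with a median of 9.80. The groups overlapped, and the log2 fold change of 0.28 (SE 0.204) did not pass the test (adjusted p 0.332). The highest value came from UNx replicate 4, which also had the highest sum of 3 adipocyte markers, 199 CPM against at most 2.68 CPM in the other 24 h libraries, and of 4 fibroblast markers, 173 CPM against at most 97.2. Without this library the log2 fold change was 0.08, and the part of these cells in its Igf1 level was not tested. At 48 h the level ran from 8.92 to 16.4 CPM in sham (median 14.8) and from 4.39 to 10.3 CPM in UNx (median 9.59). Here Igf1 fell 1.54-fold (log2 fold change -0.62, SE 0.192, adjusted p 0.0239). All 6 UNx libraries lay under the sham mean of 13.6 CPM and 2 of them under every sham. The call was lost without sham replicate 3 (adjusted p 0.0529), which had the highest Igf1 level and the highest adipocyte sum of 48 h (97.4 CPM). The sham with the next highest adipocyte sum, replicate 4 (23.6 CPM), had the lowest Igf1 level of the shams. The part of adipocytes in the fall was not tested. UNx replicate 6 alone gave -0.63 (adjusted p 0.400). Dcn and Pdgfra, 2 of the 4 fibroblast markers, were also lower in UNx at 48 h, and the sum of the 4 was 127 to 205 CPM in sham and 63.6 to 184 CPM in UNx. Of 5 endothelial markers 0 were called at 48 h, and their sum was 233 to 305 CPM in sham and 236 to 296 CPM in UNx. In bulk tissue, fewer cells of a type and less RNA per cell cannot be told apart. At 72 h the level ran from 13.1 to 18.0 CPM in sham (median 13.8) and from 9.55 to 13.3 CPM in UNx (median 12.5). UNx libraries were again on the low side, 5 of 6 under every sham, without passing the test (log2 fold change -0.33, SE 0.111, adjusted p 0.148).

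**Figure D2:**
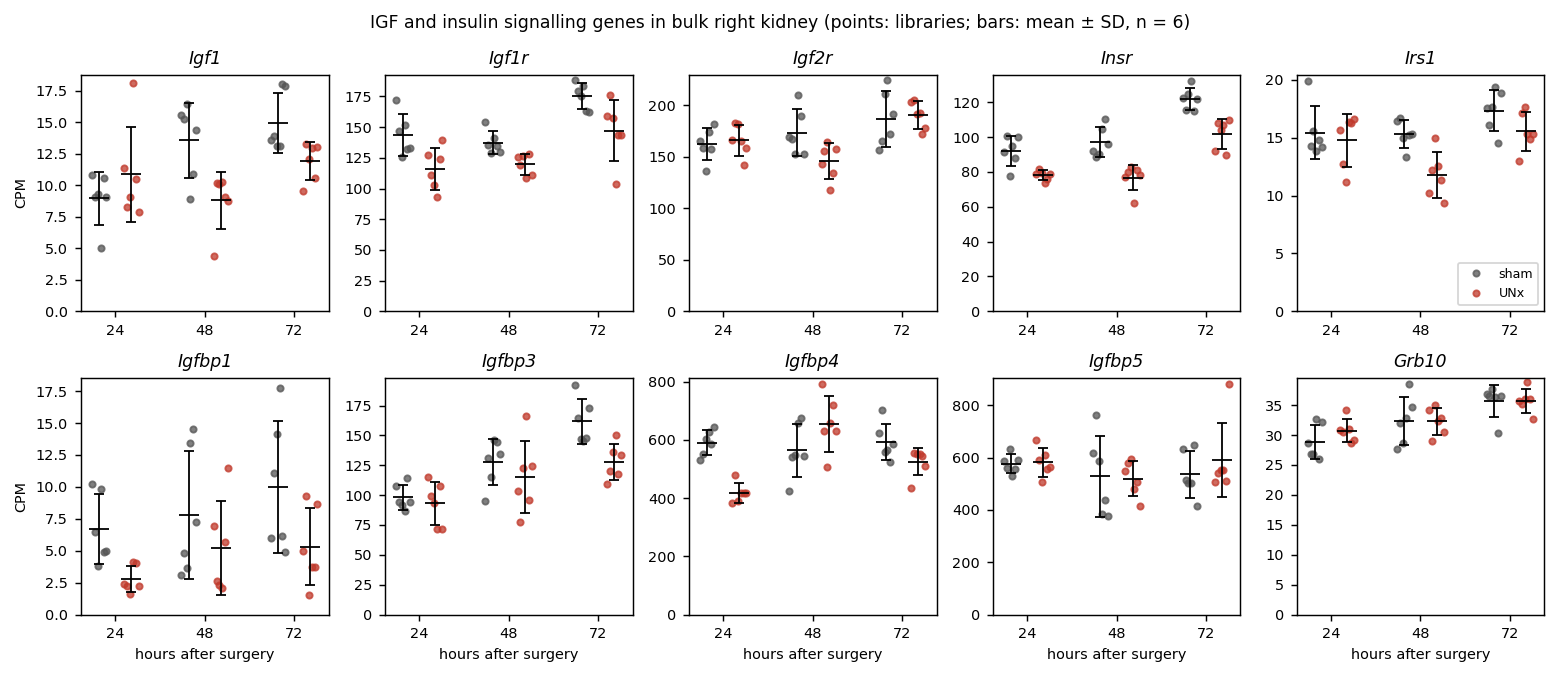
Level of each gene in CPM (y axis, from 0) in the 36 bulk libraries by hours after surgery (x axis), with 1 point per library in replicate order and the mean ± SD of 6 libraries. The red UNx points lie under all grey sham points for Igfbp4 at 24 h, for Igf1r at 48 h and for Insr at 48 and 72 h.

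Insr encodes the insulin receptor, and it was the 1 member called at all 3 times. At 24 h its level ran from 77.8 to 101 CPM in sham (median 93.1) and from 73.7 to 81.8 CPM in UNx (median 78.9). The groups overlapped through 1 sham library, and Insr fell 1.18-fold (log2 fold change -0.24, SE 0.0606, adjusted p 0.00957). At 48 h sham libraries ran from 88.8 to 110 CPM (median 94.1) and UNx libraries from 62.2 to 82.6 CPM (median 79.0). The groups did not overlap, and the log2 fold change was -0.34 (SE 0.0785, adjusted p 0.00565). UNx replicate 6 alone gave a like value, -0.31, that a single library could not carry past the threshold (adjusted p 0.340). At 72 h sham libraries ran from 115 to 132 CPM (median 122) and UNx libraries from 89.6 to 110 CPM (median 105). Again no UNx library reached the lowest sham (log2 fold change -0.26, SE 0.0594, adjusted p 0.0430). This last call was lost without any 1 of 10 of the 12 libraries (adjusted p 0.0504 to 0.0980), while the value stayed between -0.28 and -0.22. The 3 effects of 1.18-fold, 1.26-fold and 1.20-fold lower levels did not pass the test of a difference between times (adjusted p 0.587 for 48 h against 24 h, 0.996 for 72 h against 24 h).

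Igf1r encodes the IGF-1 receptor. At 24 h its level ran from 125 to 172 CPM in sham (median 140) and from 92.7 to 139 CPM in UNx (median 117). The gene fell 1.24-fold (log2 fold change -0.30, SE 0.0968, adjusted p 0.0293), with 4 of 6 UNx libraries under every sham. At 48 h sham libraries ran from 129 to 154 CPM (median 135) and UNx libraries from 109 to 128 CPM (median 123). The groups did not overlap, and the log2 fold change was -0.20 (SE 0.0644, adjusted p 0.0309). At 72 h sham libraries ran from 163 to 188 CPM (median 177) and UNx libraries from 104 to 176 CPM (median 150), and the log2 fold change of -0.25 (SE 0.0987) did not pass (adjusted p 0.208). Both calls lay near the threshold. At each of 24 and 48 h leaving out any 1 of 5 libraries ended the call (sham 1 or 4 or UNx 2, 3 or 4 at 24 h, adjusted p 0.0563 to 0.0659, and sham 1 or 4 or UNx 2, 4 or 6 at 48 h, adjusted p 0.0572 to 0.0735). Igf1r at 24 h was also the member that the profile score moved most towards 0, to -0.033 (adjusted p 0.994). UNx replicate 6 alone gave -0.31 at 48 h (adjusted p 0.282).

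Igf2r encodes the cation-independent mannose-6-phosphate receptor, which binds IGF-2. At 48 h its level ran from 153 to 210 CPM in sham (median 168) and from 118 to 165 CPM in UNx (median 149), with a log2 fold change of -0.25 (SE 0.0970) that missed the threshold (adjusted p 0.0586). All 6 UNx libraries lay under the sham mean and 3 under every sham. UNx replicate 6 alone gave -0.13. At 24 and 72 h the log2 fold changes were 0.03 (SE 0.0740, adjusted p 0.767, 95% interval -0.11 to 0.18) and 0.03 (SE 0.0862, adjusted p 0.905, 95% interval -0.14 to 0.20).

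Irs1 encodes the docking protein that carries the signal from both receptors to PI3K. At 48 h its level ran from 13.4 to 16.7 CPM in sham (median 15.3) and from 9.39 to 14.9 CPM in UNx (median 11.8). It fell 1.30-fold (log2 fold change -0.38, SE 0.104, adjusted p 0.0132), with 5 of 6 UNx libraries under every sham. The single UNx library with a low mitochondrial share, replicate 6, was the lowest of all, and alone gave -0.70 (adjusted p 0.169), while the other 5 gave -0.30 (adjusted p 0.0230). At 24 and 72 h the log2 fold changes were -0.07 (SE 0.112) and -0.16 (SE 0.0860), with adjusted p of 0.689 and 0.377. Grb10, the adaptor that damps both receptors, was at 25.9 to 38.9 CPM in all 36 libraries. Its log2 fold changes were 0.09 (SE 0.0676, 95% interval -0.04 to 0.22), -0.0017 (SE 0.0824, 95% interval -0.16 to 0.16) and 0.0016 (SE 0.0580, 95% interval -0.11 to 0.12) at 24, 48 and 72 h, with adjusted p of 0.339, 0.988 and 0.993.

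Igfbp1 and Igfbp3 are neighbours on chromosome 11 of GRCm38, on opposite strands and 3539 bases apart. Igfbp1 encodes the binding protein that insulin is known to hold down in liver. At 24 h its level ran from 3.80 to 10.2 CPM in sham (median 5.71) and from 1.63 to 4.15 CPM in UNx (median 2.32). It fell 2.43-fold (log2 fold change -1.28, SE 0.274, adjusted p 0.00340), the largest fold of the called members, and 4 of 6 UNx libraries lay under every sham. At 48 and 72 h shams spread from 3.14 to 14.5 CPM and from 4.87 to 17.7 CPM, and UNx libraries from 2.10 to 11.5 CPM and from 1.52 to 9.31 CPM. The groups overlapped at both times, and the log2 fold changes were -0.58 (SE 0.473) and -0.90 (SE 0.409), with adjusted p of 0.365 and 0.277. At 48 h the direction rested on UNx replicates 1 to 5, which gave -0.98 (adjusted p 0.109), against 0.56 (adjusted p 0.759) for replicate 6 alone.

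Igfbp3 encodes the main carrier of IGFs in blood. At 72 h its level ran from 145 to 192 CPM in sham (median 157) and from 110 to 150 CPM in UNx (median 127). Although 5 of 6 UNx libraries lay under every sham, the log2 fold change of -0.34 (SE 0.0870) missed the threshold in edgeR (adjusted p 0.0679) and passed it in DESeq2 (adjusted p 0.0109). At 24 and 48 h the groups overlapped, with log2 fold changes of -0.08 (SE 0.113) and -0.15 (SE 0.157) and adjusted p of 0.648 and 0.480.

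Igfbp4 encodes a binding protein that restrains IGFs and is cut by PAPPA. At 24 h its level ran from 530 to 644 CPM in sham (median 594) and from 381 to 478 CPM in UNx (median 418). No UNx library reached the lowest sham, and Igfbp4 fell 1.42-fold (log2 fold change -0.50, SE 0.0657, adjusted p 0.000180). At 48 h the order was the other way without passing the test, 424 to 673 CPM in sham and 507 to 793 CPM in UNx (log2 fold change 0.22, SE 0.120, adjusted p 0.179). At 72 h the values were 524 to 702 CPM in sham and 435 to 556 CPM in UNx (log2 fold change -0.18, SE 0.0791, adjusted p 0.269). Igfbp5, whose product binds IGFs in matrix, was at 377 to 880 CPM over the 36 libraries. Its log2 fold changes of 0.01 (SE 0.0667, 95% interval -0.12 to 0.14), -0.02 (SE 0.164, 95% interval -0.34 to 0.30) and 0.14 (SE 0.144, 95% interval -0.14 to 0.42) did not pass (adjusted p 0.902, 0.930 and 0.676). The value at 72 h rested on UNx replicate 6 at 880 CPM, and without it was -0.0090.

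The effect of surgery differed between times for 2 members by edgeR's interaction test over all 36 libraries. For Igf1 the effect at 48 h was lower than that at 24 h by 0.87 on the log2 scale (difference -0.87, SE 0.268, adjusted p 0.0105). Its 24 h effect of 0.28 was 0.08 without UNx replicate 4, and leaving out single libraries was not done for the differences between times. For Igfbp4 the effect at 48 h was 0.74 above that at 24 h (SE 0.134, adjusted p 5.3e-05), and the effect at 72 h was below that at 48 h (difference -0.40, SE 0.134, adjusted p 0.0407). These were 2 of 10 members for 48 h against 24 h, where 37.0% of all 15093 genes tested were called, and 1 of 10 for 72 h against 48 h, where 14.6% were. For 72 h against 24 h 0 of 10 members were called (edgeR, 2 at an unadjusted p under 0.05), against 4.15% of all genes. With either measure as a covariate 0 members were called in each contrast, and few genes were called at all: 0.00663% of them for 48 h against 24 h with each measure, 0.00% for 72 h against 48 h with each, and for 72 h against 24 h 2.11% with the mitochondrial share and 0.411% with the profile score.

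With the mitochondrial share as a covariate, 1 of the 4 called members of 24 h passed, Igfbp4 at -0.40 (adjusted p 0.0254), and Igfbp3 passed with it at -0.43 (adjusted p 0.0494), beside 4.80% of all genes. Igf1r, Insr and Igfbp1 did not pass (adjusted p 0.162, 0.108 and 0.0657). At 48 h 0 members passed with it, as did 0.00% of all genes, and at 72 h 0 members, beside 1.18%. With the profile score 0 members passed at 24, 48 and 72 h, beside 0.567%, 0.00% and 0.598% of all genes. The calls were thus lost over all genes and not in the members alone. These measures differed between the groups, so the covariate and the surgery share part of their effect, and their parts in the results were not tested further. Of the 4 genes called at 24 h, Insr kept its fold change of -0.24 with the profile score (adjusted p 0.767). The other values moved: Igfbp1 from -1.28 to -1.69 (adjusted p 0.585), Igfbp4 from -0.50 to -0.34 (adjusted p 0.646) and Igf1r from -0.30 to -0.033 (adjusted p 0.994). For Igfbp1 the SE rose from 0.274 to 0.799. At 48 h, UNx replicate 6 against the 6 shams gave values below 0 for all 4 called members (Igf1, Igf1r, Insr and Irs1). With 1 library in an arm 0.00% of all 15605 genes was called, so the missing calls say nothing of the members.

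Beyond the 10 members, 62 genes of the same pathway were listed by role, of which 55, 57 and 58 had counts enough to be tested at 24, 48 and 72 h. At 24 h 16 of 55 were called, 7 higher and 9 lower in UNx, beside 14.2% higher and 13.1% lower over all genes. At 48 h 21 of 57 were called, 13 higher and 8 lower, beside 16.9% higher and 16.0% lower, and at 72 h 2 of 58, 1 in each direction, beside 1.21% higher and 0.502% lower. The median log2 fold change of the tested list was 0.01, 0.04 and -0.05, against 0.0054, -0.040 and -0.0042 over all genes tested. Of the 2 listed receptors (Insrr and Ghr) 0 were called in edgeR at each time and 0 had an unadjusted p under 0.05, with median log2 fold changes of 0.04, -0.06 and -0.07. Of the 3 further ligands 1 had counts enough to be tested, and it was not called.

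Of the 5 genes of proteases that cut binding proteins and of their inhibitors, 4 were called at 24 h beside 27.3% of all genes, 2 at 48 h beside 32.9% and 1 at 72 h beside 1.71%. Pappa2 encodes a protease that cuts IGFBP3 and IGFBP5. It was at 0.551 to 1.39 CPM in sham (median 1.06) and 1.67 to 3.12 CPM in UNx (median 2.34) at 24 h, and no UNx library was as low as the highest sham. It rose 2.28-fold at 24 h (log2 fold change 1.19, SE 0.226, adjusted p 0.00168), 2.01-fold at 48 h (1.01, SE 0.284, adjusted p 0.0152) and 2.29-fold at 72 h (1.19, SE 0.278, adjusted p 0.0474). It was the 1 gene of list and members together to be called higher at all 3 times. The 72 h call was lost without any 1 of 10 of the 12 libraries (adjusted p 0.0515 to 0.0943), and at 48 h UNx replicate 6 alone gave 0.40 (adjusted p 0.755). With the mitochondrial share as a covariate the values of Pappa2 were 1.32 (adjusted p 0.0298), 0.38 (adjusted p 0.784) and 1.12 (adjusted p 0.107) at 24, 48 and 72 h. With the profile score they were 1.72 (adjusted p 0.213), 0.22 (adjusted p 0.839) and 1.66 (adjusted p 0.0203). Pappa, the protease of IGFBP4, rose at 24 h (log2 fold change 0.61, SE 0.159, adjusted p 0.0106), from 6.78 to 9.78 CPM in sham to 9.72 to 20.5 CPM in UNx. At 48 h its log2 fold change was -0.54 (SE 0.219, adjusted p 0.0707). Stc2, which encodes an inhibitor of PAPPA, fell by 0.45 at 24 h (SE 0.124, adjusted p 0.0138). Htra1, a serine protease gene, fell by 0.24 at 24 h (SE 0.0688, adjusted p 0.0189) and rose by 0.39 at 48 h (SE 0.0906, adjusted p 0.00596). At 24 h the values of Pappa, Stc2 and Htra1 were 0.74, -0.40 and -0.16 with the mitochondrial share (adjusted p 0.0618, 0.214 and 0.381) and 1.50, -0.19 and -0.033 with the profile score (adjusted p 0.0381, 0.950 and 0.992). UNx replicate 6 alone gave 0.27 for Htra1 at 48 h.

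**Figure D3:**
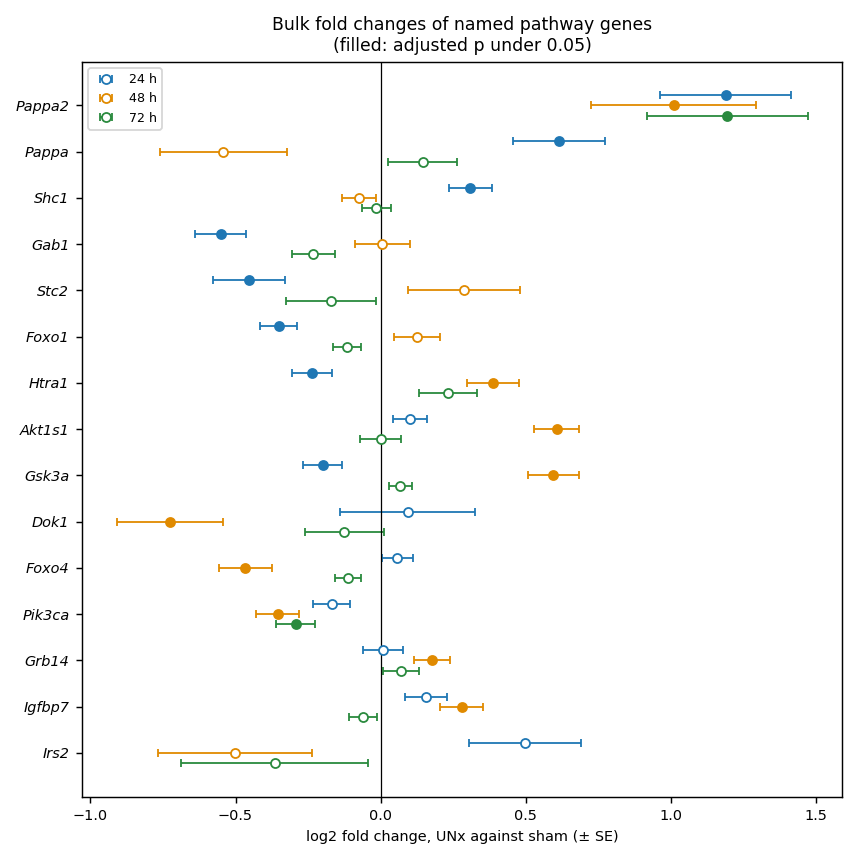
Log2 fold change of UNx against sham (x axis, ± SE) for named genes of the wider pathway (y axis) at 24, 48 and 72 h, with filled points for an adjusted p under 0.05. Pappa2 lies near 1 at each time, while Htra1 and Gsk3a have filled points on both sides of 0.

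Among adaptors, Gab1, whose product docks PI3K, fell by 0.55 at 24 h (SE 0.0880, adjusted p 0.000587), with 30.0 to 39.1 CPM in UNx under all shams at 39.6 to 59.3 CPM. Shc1, the adaptor to the RAS route, rose by 0.31 (SE 0.0735, adjusted p 0.00665), and with the profile score the value was -0.13. Grb14, an adaptor of the same family as Grb10, rose by 0.18 at 48 h (SE 0.0625, adjusted p 0.0438), a call lost without any 1 of 10 of the 12 libraries. The binding protein gene Igfbp7 rose by 0.28 at 48 h (SE 0.0747, adjusted p 0.0118), and UNx replicate 6 alone gave -0.0018. Of the FOXO genes, Foxo1 fell by 0.35 at 24 h (SE 0.0643, adjusted p 0.00133) and Foxo4 fell by 0.47 at 48 h (SE 0.0914, adjusted p 0.00226). Dok1, which encodes a docking protein that restrains receptor tyrosine kinases, fell by 0.73 at 48 h (SE 0.183, adjusted p 0.00862). Akt1s1, which encodes an inhibitor of mTORC1 that AKT phosphorylates, rose by 0.61 at 48 h (SE 0.0781, adjusted p 0.000346). Gsk3a, a kinase gene, fell by 0.20 at 24 h (SE 0.0677, adjusted p 0.0392) and rose by 0.59 at 48 h (SE 0.0890, adjusted p 0.000564). At 24 h Gab1 and Foxo1 were at -0.51 and -0.35 with the mitochondrial share (adjusted p 0.0470 and 0.0517) and at -0.50 and -0.26 with the profile score (adjusted p 0.604 and 0.761). For Foxo4, Akt1s1, Gsk3a and Dok1 at 48 h UNx replicate 6 alone gave -0.11, 0.35, 0.14 and -0.43, and for Grb14 and Pik3ca 0.10 and -0.26. Pik3ca, the gene of the PI3K catalytic subunit alpha, fell by 0.36 at 48 h (SE 0.0744, adjusted p 0.00330) and by 0.29 at 72 h (SE 0.0668, adjusted p 0.0432), the latter lost without any 1 of 8 of the 12 libraries.

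The nucleus data show where in the kidney these genes were read. The table holds 16500 nuclei of 4 mice (5342 and 2641 sham, 5151 and 3366 UNx), 18 barcodes were shared between mice, and 23 of 30 deposited classes had at least 10 nuclei in every mouse. Classes keep the authors' short names. The listed endothelial markers were highest in EC1 and then EC2, fibroblast markers in Fib and then Per, type A and type B intercalated markers in ICA and ICB, and proximal tubule markers in PTS1. The thin limb list was highest in MPC. Levels are CPM of summed estimated UMI counts in the order sham 1, sham 2, UNx 1 and UNx 2, where the first mouse of each group was in batch 3 and the second in batch 4. No test between classes was made. Nuclei of batch 4 gave higher levels in classes where a gene was low: the median over the 23 classes was 10.7 and 14.0 CPM for Igfbp4 in the batch 3 mice and 76.4 and 78.5 CPM in the batch 4 mice. The source of these counts was not tested, and low levels in the batch 4 mice are not read as expression.

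**Figure D4:**
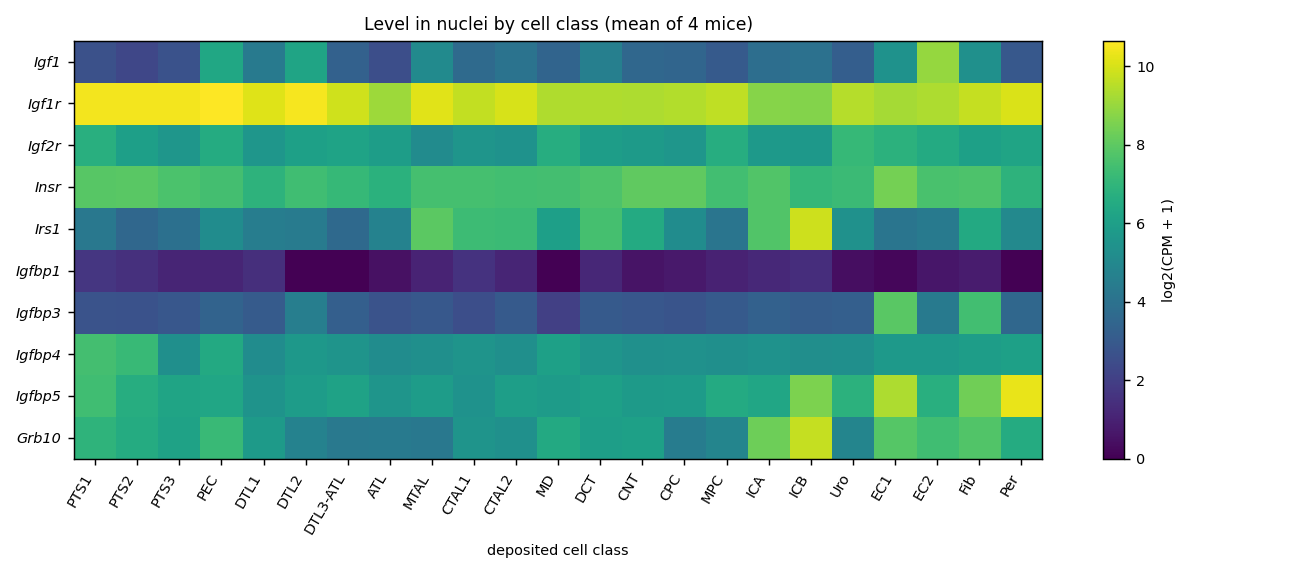
Level of each gene (rows) in each of 23 deposited cell classes (columns), as log2 of the mean CPM of 4 mice plus 1, to be compared along a row and not between genes. Igf1 is brightest in EC2, Irs1 and Grb10 in ICB, Igfbp3 in EC1 and Fib, Igfbp5 in Per, and Igfbp1 is dark throughout.

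Igf1 in nuclei was concentrated in the endothelial class EC2, at 645, 314, 758 and 301 CPM, which led in all 4 mice. No other class came to EC2's lowest mouse, and the next classes, PEC, DTL2 and EC1, overlapped each other at means of 80.5, 72.9 and 41.7 CPM, while PTS2 was lowest at 3.77 CPM. The DTL2 mean holds 1 batch 4 mouse at 226 CPM, from at most 20 nuclei. In Fib the 4 values were 80.9, 40.8, 22.0 and 17.2 CPM, both UNx mice under both shams, with a log2 fold change of -1.57 (SE 0.497, unadjusted p 0.0297) that did not pass after adjustment over the 11463 genes of the class (adjusted p 1.00). In PEC the order was the other way, at 26.6, 58.4, 121 and 116 CPM from 61 UMIs in all, with a log2 fold change of 1.56 (SE 0.570, unadjusted p 0.0288, adjusted p 0.999). Fib and PEC gave the only 2 of 177 edgeR tests of members by class with an unadjusted p under 0.05. In EC2 the values overlapped between groups, with a log2 fold change of 0.16 (SE 0.617).

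The receptor genes were read in every class tested. Igf1r was highest in PEC at 1669, 1576, 1759 and 1447 CPM and lowest in ICB at a mean of 407 CPM, and the 4 classes at the top, PEC, DTL2, PTS2 and PTS1, overlapped. Insr was highest in EC1 at 481, 282, 449 and 164 CPM, led there in 3 of 4 mice, overlapped with CNT and CPC, and was lowest in ATL at a mean of 109 CPM. Igf2r was highest in Uro at 233, 106, 142 and 72.2 CPM followed by EC1 and PTS1 at means of 114 and 103 CPM, and was lowest in MTAL at a mean of 34.3 CPM. Irs1 and Grb10 shared a top class. Irs1 in ICB was at 1158, 623, 1342 and 574 CPM, above every other class in all 4 mice, with MTAL and ICA next at means of 248 and 218 CPM and PTS2 lowest at 10.8. Grb10 in ICB was at 873, 631, 1132 and 686 CPM, with ICA and EC1 next at means of 314 and 232 CPM and MTAL lowest at 18.4.

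The binding protein genes lay in other classes. Igfbp3 was read in EC1 at 461, 135, 344 and 33.0 CPM and in Fib at 330, 110, 193 and 45.6 CPM, DTL2 followed at a mean of 22.6 CPM, and MD was lowest with 1 UMI. Igfbp5 was highest in Per at 2171, 344, 1912 and 632 CPM, next in EC1 at 989, 401, 896 and 293 CPM and in ICB at a mean of 370 CPM, and was lowest in CTAL1 at 42.2 CPM. Igfbp4 was highest in PTS1 at 186, 164, 193 and 164 CPM in all 4 mice and next in PTS2 and PEC at means of 143 and 86.7 CPM, with ATL lowest at 35.5 CPM. Igfbp1 had 245 UMIs in all, and its highest class mean, in PTS1, was 2.22 CPM, so its cells were not resolved at this depth.

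Likeness of pattern over the 23 classes was measured as Pearson's r of log2(CPM + 1) in the mean of the 2 shams, among 7948 genes reaching 50 CPM in some class. The classes share mice, libraries and depth, so the r given in parentheses are a description. Igfbp4 was most like Acmsd (0.901), Alpl (0.885) and Slc34a1 (0.869), of which Slc34a1 is the phosphate transporter of the proximal tubule. Igf2r was most like Airn (0.889) and Dusp16 (0.774). Airn is the imprinted antisense RNA that overlaps Igf2r on the opposite strand, and the strand setting of the counting is not given in the sources used here. Irs1 was most like Gcgr (0.878), Slc16a5 (0.865) and Cyp2s1 (0.854), and Grb10 like Foxn3 (0.842), Pros1 (0.772) and Exoc3l4 (0.766). Igfbp3 was most like Ifi203 (0.894), Ldb2 (0.852) and Gm12185 (0.849), and Igfbp5 like Scube1 (0.814), Rspo3 (0.81) and Tpp2 (0.754). The genes nearest to Igf1 were Fxyd5 (0.838), Sparc (0.814) and Clec14a (0.813), those nearest to Igf1r were Trio (0.801), Smo (0.773) and Clpx (0.772), and those nearest to Insr were Siah1a (0.713), Pcdh17 (0.697) and Iqsec2 (0.692). Igfbp1 stayed under 50 CPM in every class and was left out.

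Between UNx and sham, 0 of 177 member tests in the 23 classes passed in edgeR on counts summed per mouse (2 at an unadjusted p under 0.05), and 0 in DESeq2 (1 at an unadjusted p under 0.05). In edgeR 0.00% of all genes was called in each class. With the labelled batch as a block, 1 of the 177 passed, Igfbp3 in EC1, where 0.827% of 10643 genes passed. Its level went from 461 to 344 CPM within batch 3 and from 135 to 33.0 CPM within batch 4, so the batches lay further apart than the groups. The log2 fold change was -0.92 (SE 0.201, adjusted p 0.00794) with the block and -0.66 (SE 1.19, adjusted p 1.00) without it. In Fib, Igfbp3 was likewise lower in the UNx mouse of each batch, without a call (with the block -0.94, SE 0.203, adjusted p 0.371). Over all nuclei of a mouse Igfbp3 was at 24.8, 19.0, 14.5 and 11.8 CPM, a log2 difference of -0.66 (SE 0.203, adjusted p 1.00, and 0.0693 with the block, where 1.04% of all genes passed). In bulk tissue at the same time the log2 fold change of Igfbp3 was -0.08, as given above.

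Irs2, the second main IRS docking protein gene, is described here after its values were seen, since it stood out among the listed genes in nuclei. In class PTS3 it was at 203, 165, 17.7 and 20.1 CPM, in PTS2 at 102, 108, 16.5 and 13.0 CPM and in PTS1 at 47.8, 46.4, 20.8 and 15.8 CPM. Both UNx mice lay far under both shams in each of these proximal tubule classes. The log2 fold changes were -3.29 (SE 0.262), -2.81 (SE 0.226) and -1.30 (SE 0.241). None passed in edgeR without the block (adjusted p 1.00 each), and all passed with it (adjusted p 3.8e-05, 1.9e-05 and 0.00739), beside 2.38%, 3.05% and 1.64% of all genes passing with it in PTS3, PTS2 and PTS1. DESeq2 without the block also called Irs2 in PTS3 and PTS2, where it called 25 of 14816 and 36 of 14293 genes, but not in PTS1. In bulk kidney at 24 h Irs2 was at 13.8 to 35.1 CPM in sham (median 18.0) and 22.9 to 34.6 CPM in UNx (median 27.8), a log2 difference of 0.50 (SE 0.193, adjusted p 0.0667), the other way and without a call. Irs2 was called in bulk at 24 h by limma voom, and by edgeR without sham replicate 1, the highest sham. The bulk and nucleus mice differ in mouse, batch and RNA compartment, and their parts in the difference between bulk and nuclei cannot be told apart.

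**Figure D5:**
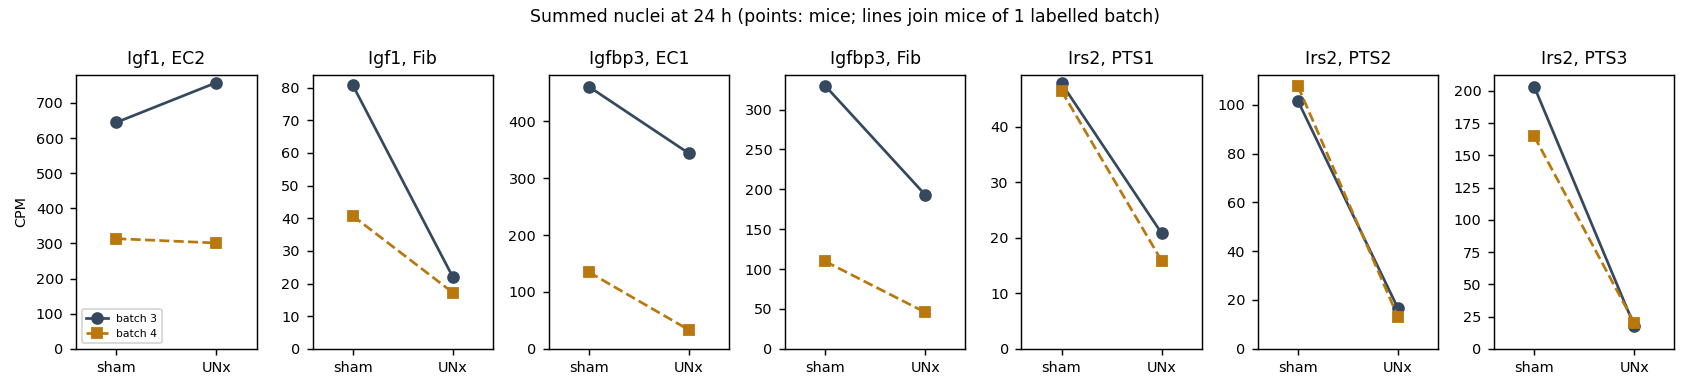
Level in CPM (y axis, from 0) of Igf1, Igfbp3 and Irs2 in named cell classes of the 4 mice at 24 h, with lines joining the sham and UNx mouse of 1 labelled batch. Irs2 is far lower in the UNx mouse of both batches in PTS1, PTS2 and PTS3, Igfbp3 is lower in UNx within each batch, and Igf1 in EC2 differs more between batches than between groups.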

How the data were processed

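The values used are estimated counts deposited by the authors, per gene and library for bulk RNA and per gene and nucleus for nuclei. The submitters' processing notes list Salmon 1.5.0, R 4.10, FastQC 0.11.8 and GRCm39 for bulk libraries and alevin, Seurat and mm10 for nuclei. For tool settings, nucleus filters and doublet removal, details were not given in the sources used here. Doublets were not called anew. Neither table was normalized by the authors. Of the bulk values 34.1% are not whole, and counts were rounded, for nuclei after summing per mouse and class. Symbols came from GENCODE M21 (GRCm38), which named 28340 bulk genes. Genes that overlap a member on the other strand (Igf1os, Airn, Vmn2r-ps88, Gm16180 and Gm9747) could share reads with it.

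UNx and sham were compared with edgeR 4.0.16 in R 4.3.3 (filterByExpr, TMM factors, quasi-likelihood test, two-sided, Benjamini-Hochberg adjustment over all genes), within the 12 libraries of a time point, and over all 36 libraries for differences between times. Each SE was taken as the log2 fold change over the root of its F statistic. The 95% intervals used normal quantiles with this SE, so they are somewhat narrower than the distribution of the test would give. For nuclei the mouse was the replicate. Nuclei of replicate 1 of both groups share batch 3 and those of replicate 2 batch 4, per the labels, and same-numbered mice deviated together (r 0.806), so the batch block pairs them. Alternatives were DESeq2 1.42.0, its size factors in edgeR, limma 3.58.1 voom with quality weights, no filter, no mitochondrially encoded genes, the replicate block, the mitochondrial share or profile score as a covariate, all libraries in 1 fit and leaving out each library. The scripts were tested on simulated data. The labels give each bulk library its own mouse number. The authors' 30-class form was used for nuclei.

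The 10 members, the pathway list and the marker lists were chosen with earlier results of these data known. All 10 members are named. Of the pathway list the 3 called genes with the largest rise and the 3 with the largest fall at each time are named, with each called ligand, receptor, adaptor, binding protein and protease gene. Gsk3a at 24 h, Pappa at 48 h and the nucleus values of listed genes fall outside this rule and were chosen after their values were seen. In nuclei the planned classes of a member were the 3 with the highest mean, the lowest and any with a call, and Igf1 in Fib lies outside them. The alternatives for pathway genes with UNx replicate 6 alone, and all those for named pathway genes and for Irs2, Socs2 and Gab1 in nuclei, were chosen after seeing the data. A gene among those named by likeness of pattern is not reported here.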

Additional observations from a re-analysis of the deposited data

Results flagged for a closer look

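In 96 groups of 6 libraries, 10 held a value further from the rest than expected of a single group of that size by Dixon's criterion, where chance gives about 1 in 20 groups. Among members at 24 h these were Igf1 at 4.98 CPM in sham replicate 4 and at 18.1 CPM in UNx replicate 4, and Irs1 at 19.9 CPM in sham replicate 1. At 48 h they were Igf1 at 4.39 CPM in UNx replicate 1 and Insr at 62.2 CPM in UNx replicate 4. At 72 h they were Igfbp5 at 880 CPM in UNx replicate 6 and Grb10 at 30.3 CPM in sham replicate 5. In the wider pathway they were Htra1 at 145 CPM in sham replicate 4 of 24 h, and Gsk3a at 65.0 CPM and Foxo4 at 29.0 CPM in UNx replicate 6 of 48 h, the library with a low mitochondrial share.

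The effect of surgery differed between 2 times, by edgeR's interaction test, for the members Igf1 (48 h minus 24 h -0.87) and Igfbp4 (0.74, and -0.40 for 72 h minus 48 h). For 48 h minus 24 h the difference in log2 fold change was also called for Pappa (-1.12), Shc1 (-0.35), Gab1 (0.59), Stc2 (0.77), Foxo1 (0.51), Htra1 (0.65), Akt1s1 (0.53), Gsk3a (0.82), Dok1 (-0.79), Foxo4 (-0.49) and Grb14 (0.20). For 72 h minus 24 h it was called for Shc1 (-0.30) and Htra1 (0.49). For 72 h minus 48 h it was called for Akt1s1 (-0.61), Gsk3a (-0.54), Foxo4 (0.34) and Igfbp7 (-0.35). Contrasts with 24 h also cross the labelled batches.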

How the results depend on the processing

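Over 74 single-gene values and their alternatives, 968 of 1166 kept direction and side of the threshold, 125 lost the call, 22 gained it, 50 changed sign and 1 level moved beyond its spread (Igfbp1 in PTS1, 1.34 CPM in the authors' 33-class form). At 24 h, against 4 members and 16 pathway genes called, the mitochondrial share as a covariate gave 2 members (1 of the 4, and Igfbp3) and the profile score 0, with 3 and 1 pathway genes. At 48 h (4 and 21) either covariate gave 0 members and 0 pathway genes, where it called 0 of all genes. UNx replicate 6 as the only UNx library also gave 0 and 0, an arm of 1 library in which 0 of all genes were called, so that its counts say nothing of stability. At 72 h (1 and 2) the mitochondrial share, no filter on low counts and the replicate block gave 0 and 0, the profile score 0 and 1, DESeq2 gave 2 members and limma voom 5 pathway genes. Leaving out 1 library gave 3 to 4, 3 to 5 and 0 to 2 members and 12 to 17, 17 to 30 and 0 to 4 pathway genes at 24, 48 and 72 h. Members whose effect differed between times numbered 0 with either covariate for 48 h against 24 h and for 72 h against 48 h. Bulk replicate numbers did not pair the libraries (2 of 18 correlations of deviations over 0.1, range -0.29 to 0.13), so the block there shares only a number. It moved no bulk count of members but that of 72 h. In nuclei the block raised the calls over classes from 0 to 1.

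Sign changes, all in values that did not pass except Shc1 and Igfbp7, were as follows, and the cause was not tested. With the mitochondrial share, Igf2r at 24 h was -0.027, Igfbp5 at 24 h -0.061, Igfbp1 at 48 h 0.47, Igfbp7 at 48 h -0.017 and Grb10 at 72 h -0.055. With the profile score, at 24 h Igf1 was -0.56, Igf2r -0.049, Irs1 0.085, Igfbp5 -0.054 and Shc1 -0.13, at 48 h Igfbp1 0.82 and Igfbp3 0.045, and at 72 h Grb10 -0.021. UNx replicate 6 alone gave 0.56 for Igfbp1 and -0.0018 for Igfbp7. At 48 h Igfbp5 was 3.7e-05 with DESeq2, 1.2e-05 with its size factors in edgeR, 0.036 with limma voom and 0.019 with the replicate block. Grb10 at 48 h was 0.020 with DESeq2, 0.019 with its size factors, 0.017 with all 36 libraries in 1 fit, 0.018 with no mitochondrially encoded genes and 0.0038 with the replicate block. Leaving out 1 library, values ran at 24 h from -0.012 to 0.075 for Igf2r, -0.10 to 0.024 for Irs1 and -0.029 to 0.051 for Igfbp5. At 48 h they ran from -0.10 to 0.11 for Igfbp5 and -0.044 to 0.054 for Grb10, and at 72 h from -0.018 to 0.088 for Igf2r, -0.0090 to 0.20 for Igfbp5 and -0.043 to 0.026 for Grb10. In nuclei Igfbp3 in EC1 ran from -3.07 to 0.51 and Igf1 in EC2 from -0.56 to 0.76 without 1 mouse.

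The number of nuclei and mice limits the nucleus results: 10 nuclei of a mouse were enough for a class to be tested, and MD had 50 in all. With 2 mice per group, edgeR with the filter on low counts gave 0 calls without the batch as a block. DESeq2, also without a block, called 25 genes over all nuclei, 8 in PTS1, 36 in PTS2 and 25 in PTS3.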

Other observations

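The protease gene Pappa2 was read in nuclei almost only in the class MD, at 537, 751, 1822 and 757 CPM in sham 1, sham 2, UNx 1 and UNx 2, against a mean of 15.1 CPM in the next class, CPC. MD held 16, 13, 11 and 10 nuclei, so the level in each mouse rests on few nuclei. Pappa was highest in CPC at 821, 667, 582 and 668 CPM and next in MD at 859, 385, 708 and 468 CPM. Without the batch as a block, edgeR with the filter on low counts called no gene in any class.

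Socs2, a growth hormone responsive brake on cytokine receptors, and Gab1 were looked at in proximal tubule nuclei after their values were seen. In PTS3 Socs2 was at 81, 75, 14.7 and 12.9 CPM, with a log2 fold change of -2.50 (SE 0.229) that passed in edgeR with the batch as a block (adjusted p 4.9e-05) and not without it (adjusted p 1.00). DESeq2 without the block also called Socs2 in PTS3. In bulk at 24 h Socs2 was at 4.98 to 28.9 CPM in sham and 6.46 to 22.4 CPM in UNx (log2 fold change 0.11, adjusted p 0.860). Gab1 had log2 fold changes of -0.53, -0.74 and -0.63 in PTS1, PTS2 and PTS3, of which that in PTS2 passed with the block (adjusted p 0.0203), beside the lower bulk level at 24 h.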
